A study of Sus scrofa with 12 samples.

Results

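The calcium release and entry toolkit examined here was made up of 9 genes whose products release, sense, admit, pump back or read calcium in the egg. They were ITPR1, ITPR2 and ITPR3 (the inositol trisphosphate receptors), STIM1 (the store sensor), ORAI1 and TRPM7 (plasma membrane channels), ATP2A2 (the store pump SERCA2), and CAMK2D and CAMK2G (subunits of calcium/calmodulin-dependent kinase II). The rule lists these genes by their role in egg activation and sets no threshold on their values, although it was written with earlier results of these data known, and all 9 were matched by symbol among the 31908 pig gene identifiers of the series. Transcripts were measured by RNA-seq in porcine oocytes after 0h, 22h or 46h of in vitro maturation, with 4 libraries per time point and 12 in all.

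Per the study's methods, the ovaries came from prepubertal gilts at a slaughterhouse. Complexes of fully grown oocytes and their cumulus cells were pooled, matured in a medium with follicular fluid, epidermal growth factor and gonadotropins, and stripped of cumulus cells before lysis. Each library was made from a pool of such denuded oocytes and amplified by SMART-Seq2 from an oligo-dT primer, which copies RNA from its poly(A) tail. The 0h group held oocytes at the germinal vesicle stage, the 22h group was sampled before metaphase I, and the 46h group was collected at the time of metaphase II, as the series design text names these stages. That text gives a slightly later hour for the middle group than the sample labels, whose 22h is used here. In an earlier time course that the paper cites, part of the oocytes were not at the named stage, most of all for metaphase II. A pool may thus mix stages. Nothing stated that replicates came from separate animals or cultures, so p-values measure the spread between these samples, which may be technical. In pooled oocytes, fewer cells holding a transcript and less RNA per cell cannot be told apart, and a shorter poly(A) tail and a loss of the transcript cannot be told apart either. The same holds for a longer poly(A) tail and a gain of the transcript. Values scaled to library size also do not give amounts per oocyte.

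In a mammalian egg, calcium is stored in the endoplasmic reticulum and leaves it through inositol trisphosphate receptors when sperm phospholipase C produces inositol trisphosphate. The store is refilled by SERCA pumps, and calcium lost to the outside is replaced through plasma membrane channels, among them the ORAI pores that STIM1 opens when the store is low. Calmodulin and its kinase then read the calcium oscillations and drive the egg out of metaphase II arrest. During in vitro maturation the oocyte makes little new RNA, and the transcripts measured are mostly maternal stores.

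The sequences below come from functional stretches that family members have in common, and are shown because the results turn on how far reads of related genes can be told apart. The first set codes for the stretch of the inositol trisphosphate receptors that holds the ion selectivity filter, in lower case where all 3 receptors share the base and in capitals where at least 1 differs. The sequences are RefSeq coding bases on Sscrofa11.1, 5′ to 3′ on the coding strand. The stretch lies within a single coding exon at chr13:61368614-61368655 (plus strand) for ITPR1, chr5:47402635-47402676 (plus strand) for ITPR2 and chr7:29897216-29897257 (plus strand) for ITPR3.
ITPR1: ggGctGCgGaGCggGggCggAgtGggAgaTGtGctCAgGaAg
ITPR2: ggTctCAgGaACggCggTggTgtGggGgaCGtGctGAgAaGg
ITPR3: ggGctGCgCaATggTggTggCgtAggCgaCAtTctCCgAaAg

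In this stretch 18 of the 42 bases varied, and ITPR2 and ITPR3 differed from ITPR1 at 12 and 13 bases. The second set codes for the part of the kinase subunits that follows the catalytic domain, around the threonine whose phosphorylation keeps the kinase active after calcium falls, with capitals at bases that differ. It lies in a single coding exon at chr8:109168343-109168396 (plus strand) for CAMK2D and chr14:76562552-76562605 (minus strand) for CAMK2G.
CAMK2D: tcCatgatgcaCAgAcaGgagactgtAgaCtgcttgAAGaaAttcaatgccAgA
CAMK2G: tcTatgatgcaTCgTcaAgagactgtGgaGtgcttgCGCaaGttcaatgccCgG

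The pair differed at 13 of these 54 bases. Over the aligned coding sequence, ITPR1 was 70.2% identical to ITPR2 and 70.8% to ITPR3, ITPR2 was 67.6% identical to ITPR3, and CAMK2D was 76.2% identical to CAMK2G. The longest run of identical bases was 27 (ITPR1 and ITPR3), and no stretch of 50 bases was shared within a family. ITPR1 lies at chr13:61068131-61398918 with 60 coding exons and codes for 2750 residues, against 2702 for ITPR2 and 2671 for ITPR3. Exons of another RefSeq gene overlapped those of ITPR1 by 120 bases, ITPR2 by 420, ATP2A2 by 253 (ANAPC7) and CAMK2G by 115 (PLAU), each on the opposite strand, and those of CAMK2G by 143 on the same strand. Reads from the opposite-strand bases cannot be told apart without strand, nor those from the same-strand bases with it, and their part in the values was not tested.

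The libraries held 697468 to 802184 FPKM in total and 5819 to 7895 genes at 1 FPKM or more, with the fewest at 46h (5819 to 6076). FPKM, fragments scaled to transcript length and library size, gives no read counts, so the depth of each library is unknown and the spread over 4 replicates is the only error given. Mitochondrially encoded transcripts made up between 1.79% and 3.76% of the FPKM at 0h, between 8.06% and 12% at 22h and between 12.8% and 16.7% at 46h. Replicate 4 of 0h stood apart from its group (median r with the other replicates of 0.946, against 0.979 to 0.986 for those replicates). Replicate 1 of 22h was barely lower than its group (0.964, against 0.969 to 0.98), but its deviations from the group mean correlated with those of replicate 4 of 0h (r = 0.532), and the pair is named below as the correlated libraries. Values without both libraries are given for the results they touch most. All 15 matched oocyte markers had a mean of at least 1 FPKM at 0h, 14 at 22h and 12 at 46h. Of the 18 matched cumulus and granulosa markers, 16 summed to at most 1.24 FPKM in any library, while VCAN averaged 58.3, 65 and 126 FPKM and STAR 4.47, 3.5 and 4.63 FPKM at 0h, 22h and 46h. LHCGR, INHA, KRT8 and KRT18 were listed at 0 in all 12 libraries. VCAN and the mitochondrial share thus moved with the stage, and the part of VCAN in the results was not tested.

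At 0h the toolkit was led by ITPR1 (8.03 ± 1.75 FPKM, SD, n = 4), which stood at percentile 49.3 of the 7013 genes tested. It was followed by CAMK2D (5.92 ± 1.72), TRPM7 (4.42 ± 0.732), ATP2A2 (4.11 ± 1.14) and CAMK2G (2.97 ± 0.26). Then came a gap, as no library of CAMK2G was as low as any of ORAI1 (0.53 ± 0.464), which was followed by ITPR3 (0.133 ± 0.09), ITPR2 (0.0725 ± 0.0499) and STIM1 (0.05 ± 0.02). The ranges of all other neighbours in this order overlapped. At 22h ITPR1 stood clear of the next gene, ATP2A2, in all 4 libraries. At 46h ITPR1 came behind ATP2A2, CAMK2D, TRPM7 and CAMK2G, with its range overlapping that of CAMK2G and lying wholly below those of the other 3 and above those of the 4 low genes.

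**Figure D1:**
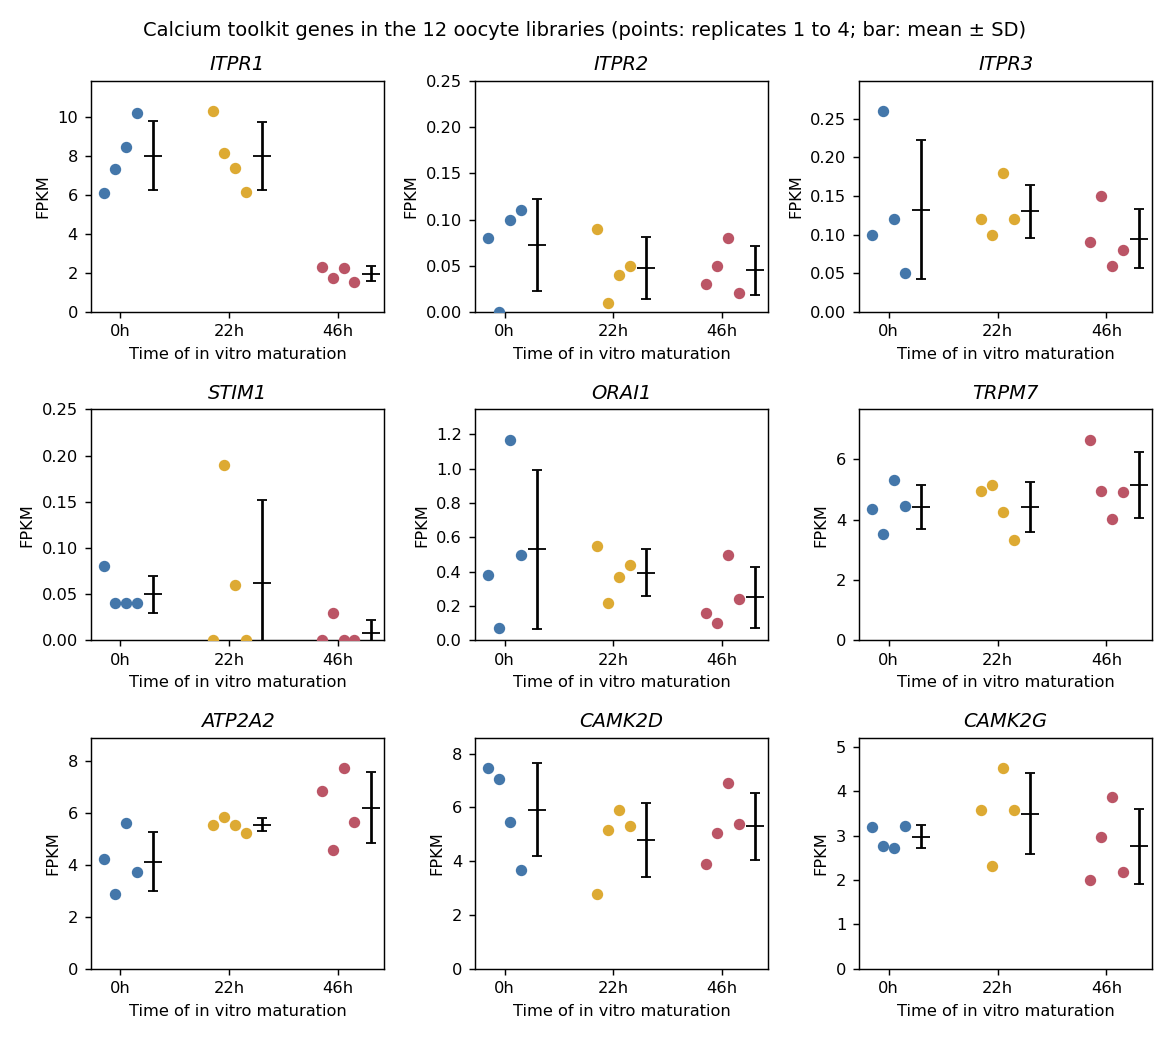
FPKM (vertical axis, a separate linear scale starting at 0 in each panel) of the 9 calcium toolkit genes by time of maturation (0h, 22h or 46h); points are replicates 1 to 4 from left to right and the black bar is the mean ± SD of 4 libraries, cut at 0. The ITPR1 points at 46h (1.51 to 2.32 FPKM) lie below every earlier point (6.09 to 10.31 FPKM), while the points of TRPM7, ATP2A2, CAMK2D and CAMK2G overlap between stages.

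The inositol trisphosphate receptors, which open the store, differed in level and in time course. ITPR1 (ENSSSCG00000023437), the main receptor type of mammalian eggs, measured 6.09, 7.33, 8.49 and 10.21 FPKM in replicates 1 to 4 at 0h. It measured 10.31, 8.17, 7.38 and 6.17 FPKM at 22h and 2.32, 1.76, 2.25 and 1.51 FPKM at 46h. The 0h and 22h libraries covered the same range, and all 4 libraries at 46h lay below every one of the other 8. The highest value at 0h and the highest at 22h were those of the correlated libraries.

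Between 0h and 22h the log2 fold change of ITPR1 was 0.00 on the log2(FPKM + 1) scale used throughout, which understates changes of low genes (95% confidence interval -0.40 to 0.40, limma, Benjamini-Hochberg adjusted p = 0.991). Between 22h and 46h it fell by 1.60 on the log2 scale (interval -2.0 to -1.19, limma adjusted p = 7.78e-06), and between 0h and 46h likewise by 1.60 (interval -2.0 to -1.20, limma adjusted p = 3.92e-06). These are 3.02-fold and 3.03-fold falls on that scale, and the mean FPKM at 46h was 0.245 and 0.244 times that at 22h and 0h. Without the correlated libraries, the log2 fold changes were -1.48 and -1.49. A fall at 46h was common with FPKM as deposited. At 46h, 32.6% of all genes tested passed both thresholds as lower against 22h and 39.1% as lower against 0h. With quantile normalization, more genes passed as higher than as lower (1971 and 1340 against 22h, 2877 and 1789 against 0h).

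The size of the fall depended on how libraries were scaled, although it passed the thresholds under each scaling. The log2 fold change of all genes tested between 0h and 46h had a median of -0.25 in FPKM as deposited, 0.07 with median-of-ratios scaling, 0.37 with quantile normalization and -0.35 in TPM. Under these same scalings ITPR1 changed by -1.60, -1.29, -0.93 and -1.76. In TPM without the mitochondrially encoded genes it changed by -1.63.

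ITPR2 (ENSSSCG00000000555) and ITPR3 (ENSSSCG00000001518), the receptor types of many somatic tissues, were near 0 throughout. ITPR2 ranged from 0 to 0.11 FPKM over the 12 libraries and ITPR3 from 0.05 to 0.26 FPKM. Both were under the mean of 1 FPKM needed for the fit across genes, and exact two-sided permutation tests of 4 against 4 libraries gave p of 0.429 to 1 for ITPR2 and 0.229 to 1 for ITPR3. The smallest p such an exact permutation test can give is 0.0286. ITPR1 made up between 96.6% and 98.5% of the summed FPKM of the 3 receptors at 0h, between 97.1% and 98.7% at 22h and between 89.8% and 95.1% at 46h.

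The store sensor and its channel were also low. STIM1 (ENSSSCG00000014792), which senses calcium in the store lumen, measured 0.08, 0.04, 0.04 and 0.04 FPKM at 0h. It measured 0, 0.19, 0.06 and 0 FPKM at 22h, and at 46h it was listed at 0 in 3 libraries and at 0.03 FPKM in replicate 2. The 46h libraries all lay below the 0h libraries (exact permutation test, p = 0.0286, the smallest the design allows), but with median-of-ratios scaling the exact p was 0.0857. This was the smallest of 12 such tests over the 4 low genes, which were not adjusted.

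ORAI1 (ENSSSCG00000034510), the pore that STIM1 opens, measured 0.38, 0.07, 1.17 and 0.50 FPKM at 0h and 0.55, 0.22, 0.37 and 0.44 FPKM at 22h. At 46h it measured 0.16, 0.10, 0.50 and 0.24 FPKM. The stages overlapped, replicate 3 of 0h being the only library above 1 FPKM, and exact permutation tests gave p = 0.743, 0.229 and 0.371 for 22h against 0h, 46h against 22h and 46h against 0h. Of the kin of these genes, STIM2 averaged 0.442 FPKM and ORAI3 0.0692 FPKM over the 12 libraries, and ORAI2 was listed at 0 in all of them.

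TRPM7 (ENSSSCG00000004636), a channel for calcium, magnesium and zinc fused to a kinase, was the more abundant entry channel among the 9 genes. It measured 4.37, 3.52, 5.31 and 4.46 FPKM at 0h and 4.96, 5.15, 4.25 and 3.34 FPKM at 22h. At 46h it measured 6.66, 4.96, 4.03 and 4.92 FPKM. Replicate 1 of 46h was the highest of all, and the other libraries of the 3 stages shared a single range. The log2 fold change was 0.00 at 22h against 0h (interval -0.38 to 0.38, limma adjusted p = 0.999), and 0.18 at 46h against either earlier stage (interval -0.20 to 0.55, limma adjusted p = 0.43 against 22h and 0.403 against 0h). With quantile normalization the latter changes were 0.68 and 0.84 (limma adjusted p = 0.00454 and 6.15e-04), past the thresholds.

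ATP2A2 (ENSSSCG00000034386) codes for SERCA2, the pump that returns calcium to the store. It measured 4.21, 2.89, 5.61 and 3.74 FPKM at 0h and 5.54, 5.84, 5.52 and 5.23 FPKM at 22h. At 46h it measured 6.83, 4.58, 7.72 and 5.66 FPKM. The 46h libraries of replicates 1, 3 and 4 lay above every 0h library, but replicate 2 did not, and replicate 3 of 0h overlapped the 22h range.

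The log2 fold change of ATP2A2 was 0.38 at 22h against 0h (interval -0.02 to 0.78, limma adjusted p = 0.132) and 0.12 at 46h against 22h (interval -0.28 to 0.52, limma adjusted p = 0.616). At 46h against 0h it was 0.50 (interval 0.10 to 0.90, limma adjusted p = 0.029). This was a 1.41-fold difference on the log2(FPKM + 1) scale, under the 1.5-fold also required of a change. The mean FPKM at 46h was 1.51 times that at 0h. With a pseudocount of 0.1 the log2 fold change was 0.59 (limma adjusted p = 0.0278), past both thresholds. It passed both thresholds with median-of-ratios scaling (0.84, limma adjusted p = 6.73e-04) and quantile normalization (1.17, limma adjusted p = 3.92e-05), and also without replicate 3 of 0h (0.63, limma adjusted p = 0.0102) and without replicate 2 of 46h (0.62, limma adjusted p = 0.0128). In TPM it was 0.43 (limma adjusted p = 0.0628). Of the other SERCA genes, ATP2A1 was listed at 0 in all 12 libraries and ATP2A3 had a mean of 0.00917 FPKM, and a listed 0 may be a failed estimate, since broadly expressed genes such as GRINA were also listed at 0 throughout.

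The kinase subunits, which decode the calcium signal, showed no change past the thresholds with FPKM as deposited. CAMK2D (ENSSSCG00000009123) measured 7.46, 7.07, 5.46 and 3.69 FPKM at 0h and 2.77, 5.16, 5.91 and 5.32 FPKM at 22h. At 46h it measured 3.88, 5.05, 6.89 and 5.38 FPKM. The lowest libraries of 0h and of 22h were replicate 4 of 0h and replicate 1 of 22h, the correlated libraries, and the stages overlapped.

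CAMK2G (ENSSSCG00000010311), the subunit that mouse eggs need for exit from meiosis, measured 3.19, 2.77, 2.73 and 3.21 FPKM at 0h and 3.58, 2.31, 4.52 and 3.57 FPKM at 22h. At 46h it measured 2.01, 2.96, 3.87 and 2.18 FPKM. The 22h and 46h groups each reached both above and below the narrow 0h range. The other CaMKII genes, CAMK2A and CAMK2B, were listed at 0 in all 12 libraries.

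For CAMK2D the log2 fold changes were -0.26 (interval -0.76 to 0.25, limma adjusted p = 0.436) at 22h against 0h, 0.14 (interval -0.37 to 0.65, limma adjusted p = 0.658) at 46h against 22h and -0.12 (interval -0.63 to 0.39, limma adjusted p = 0.682) at 46h against 0h. For CAMK2G they were 0.16 (interval -0.25 to 0.56, limma adjusted p = 0.559), -0.26 (interval -0.67 to 0.14, limma adjusted p = 0.27) and -0.11 (interval -0.51 to 0.30, limma adjusted p = 0.648). Without the correlated libraries, the changes of CAMK2D were -0.24, -0.06 and -0.29. For both genes the widest of these intervals reach past a 1.5-fold change, so differences of that size were not excluded by these libraries. The signs at 46h against 0h turned with scaling, to 0.21 and 0.19 with median-of-ratios and to 0.56 and 0.58 with quantile normalization.

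Of the 5 toolkit genes that could be fitted, 0 passed the thresholds (adjusted p under 0.05 and a fold change over 1.5) at 22h against 0h, where 26.7% of all genes tested passed. At an unadjusted p under 0.05 the count was also 0. At 46h against 22h 1 of 5 passed, beside 42.4% of all genes tested, and at 46h against 0h 1 of 5, beside 55.9%. In both, that gene was ITPR1. The 46h comparisons share their 46h libraries, so they are not separate evidence.

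**Figure D2:**
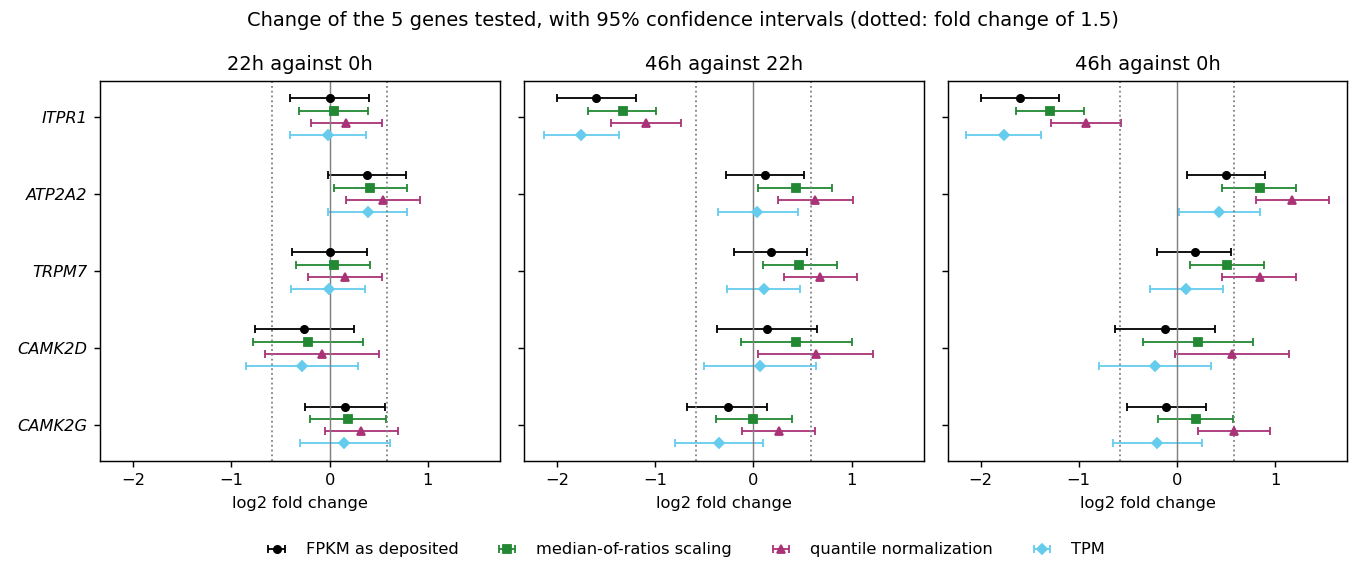
Log2 fold change (horizontal axis) of the 5 toolkit genes in the fit for each comparison of stages, with 95% confidence intervals from limma; symbols and colours mark FPKM as deposited, median-of-ratios scaling, quantile normalization and TPM, and dotted lines mark a 1.5-fold change. At 46h against 0h ITPR1 lies between -1.76 and -0.93 under the 4 scalings, and all 5 genes shift to the right from TPM to quantile normalization.

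Ratios within a library set related genes side by side. A common scaling hardly moves them where both genes are well above the 0.1 FPKM added, but it does move those of the low genes. The log2 ratio of ATP2A2 to the summed receptors (0.1 FPKM added to each side) was -0.56, -1.36, -0.63 and -1.45 in replicates 1 to 4 at 0h and -0.91, -0.50, -0.45 and -0.27 at 22h. At 46h it was 1.45, 1.18, 1.65 and 1.75. The pump transcript was thus below the receptors in all 8 earlier libraries and above them in all 4 at 46h.

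The means of this ratio were -1.0 ± 0.47, -0.53 ± 0.27 and 1.51 ± 0.25 (SD, n = 4; exact permutation p = 0.143 for 22h against 0h). The difference was 2.04 at 46h against 22h and 2.51 at 46h against 0h, and each had the smallest exact permutation p the design allows, 0.0286. Over the 18 tests of 6 ratios the adjusted value of these p was 0.0857, so they did not pass the correction, although all 4 libraries at 46h lay above those of both earlier stages. As no p can be smaller here, the correction could be passed only if most of the 18 tests reached this p. ITPR1 made up most of the sum, so the ratio carries the fall of ITPR1 described above.

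The ratios of ITPR2 and ITPR3 to ITPR1 are not read as a balance between receptors, because both numerators were of the size of the 0.1 FPKM added and the ratios mostly restate the fall of ITPR1. The log2 ratio of CAMK2G to CAMK2D had means of -0.92 ± 0.51, -0.43 ± 0.61 and -0.94 ± 0.23 at 0h, 22h and 46h. Its differences were within the spread of replicates (exact permutation p = 0.286, 0.171 and 0.971 for 22h against 0h, 46h against 22h and 46h against 0h). The differences were 0.50, -0.51 and -0.01 with all libraries and 0.48, -0.25 and 0.23 without the correlated libraries. CAMK2D made up between 53.5% and 71.8% of the FPKM of the pair at 0h, between 43.6% and 69.1% at 22h and between 63% and 71.2% at 46h, and the lowest shares at 0h and at 22h again belonged to the correlated libraries. The ratios of ITPR2 to ITPR3 and of ORAI1 to STIM1 had exact permutation p of 0.457 to 1, but rest on values near the 0.1 FPKM added.

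**Figure D3:**
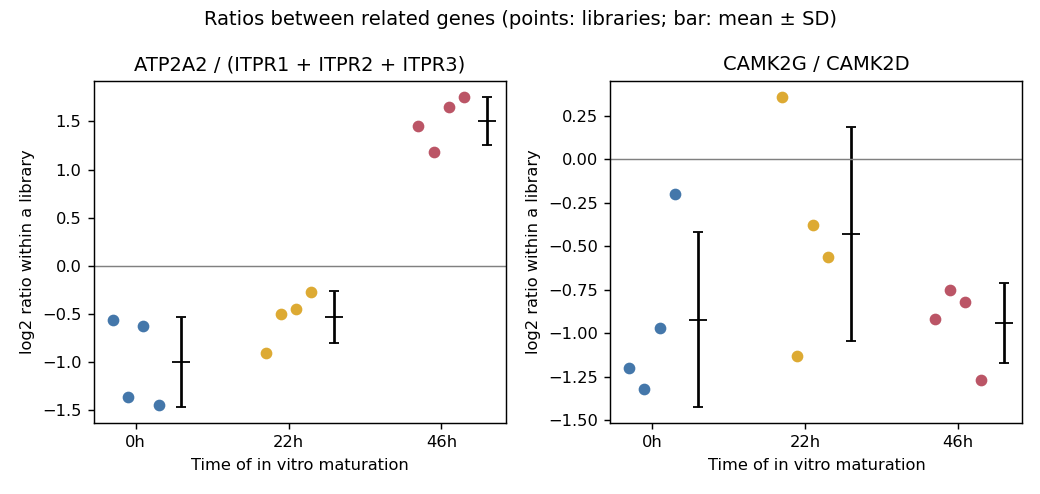
Log2 ratios within each library (vertical axis) of ATP2A2 to the sum of ITPR1, ITPR2 and ITPR3 (left) and of CAMK2G to CAMK2D (right) at 0h, 22h and 46h; points are replicates 1 to 4 from left to right and bars are mean ± SD. On the left the 46h points lie at 1.18 to 1.75 and all others below 0, and on the right the stages overlap.

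The named genes whose log2(FPKM + 1) followed each toolkit gene most closely over the 12 libraries were listed by Pearson's r, as a description. For ITPR1 they were CENPS (r = 0.989, a centromere protein), TCEAL9 (0.986) and DAZAP1 (0.984, an RNA-binding partner of the germ cell protein DAZ). CENPS averaged 588, 652 and 180.4 FPKM at 0h, 22h and 46h, and DAZAP1 10.8, 8.97 and 1.51 FPKM. Both thus shared the level course of ITPR1, with their lowest mean at 46h.

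For ATP2A2 the closest were XPOT (r = 0.960, the tRNA exporter), ATF7 (0.922) and C9orf40 (0.916). XPOT averaged 8.12, 13.6 and 14.5 FPKM. For TRPM7 they were POLQ (0.911, a DNA repair polymerase), ARFGEF1 (0.871) and VPS13C (0.854), for CAMK2D PLIN2 (0.895, a lipid droplet coat protein), ZNF79 (0.894) and FZD3 (0.873), and for CAMK2G DIAPH1 (0.845, an actin nucleator), POC1A (0.831) and TSPAN15 (0.809). The points of these correlations share the 12 libraries and their scale, and the values for TRPM7, CAMK2D and CAMK2G rest on small differences between libraries.

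The annotated 3′ ends of the toolkit genes were searched for short elements, because the libraries were primed on poly(A) tails. The letters TTTTAT or TTTTAAT, forms of the cytoplasmic polyadenylation element, were sought on the transcript strand in the last 100 bases of the longest RefSeq transcript. They occurred in ITPR3 and STIM1 and in none of the 5 genes that were fitted, beside 21.9% of 5667 named genes tested. The polyadenylation signal AATAAA or ATTAAA occurred in 7 of the 9, all but ORAI1 and CAMK2D, beside 77.3%. These matches describe letters in this window of the annotation only.

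A wider list of 109 calcium genes, sorted by role and chosen with earlier results of these data known, gave the setting. Of these 102 were matched and 47 had a mean of at least 1 FPKM. Genes counted below as risen (higher) or fallen (lower) passed both thresholds with FPKM as deposited. At 22h against 0h 7 rose and 8 fell (median log2 fold change 0.10, beside 0.00 for all genes tested, of which 7.84% rose and 18.9% fell). Without replicate 4 of 0h the genes that rose among all tested went from 550 of 7013 to 861 of 6890. At 46h against 22h 2 rose and 16 fell (median -0.43, beside -0.26, with 9.87% of all genes higher and 32.6% lower). At 46h against 0h 10 rose and 19 fell (median -0.34, beside -0.25, with 16.8% of all genes higher and 39.1% lower). All p in the following paragraphs are Benjamini-Hochberg adjusted values from limma.

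**Figure D4:**
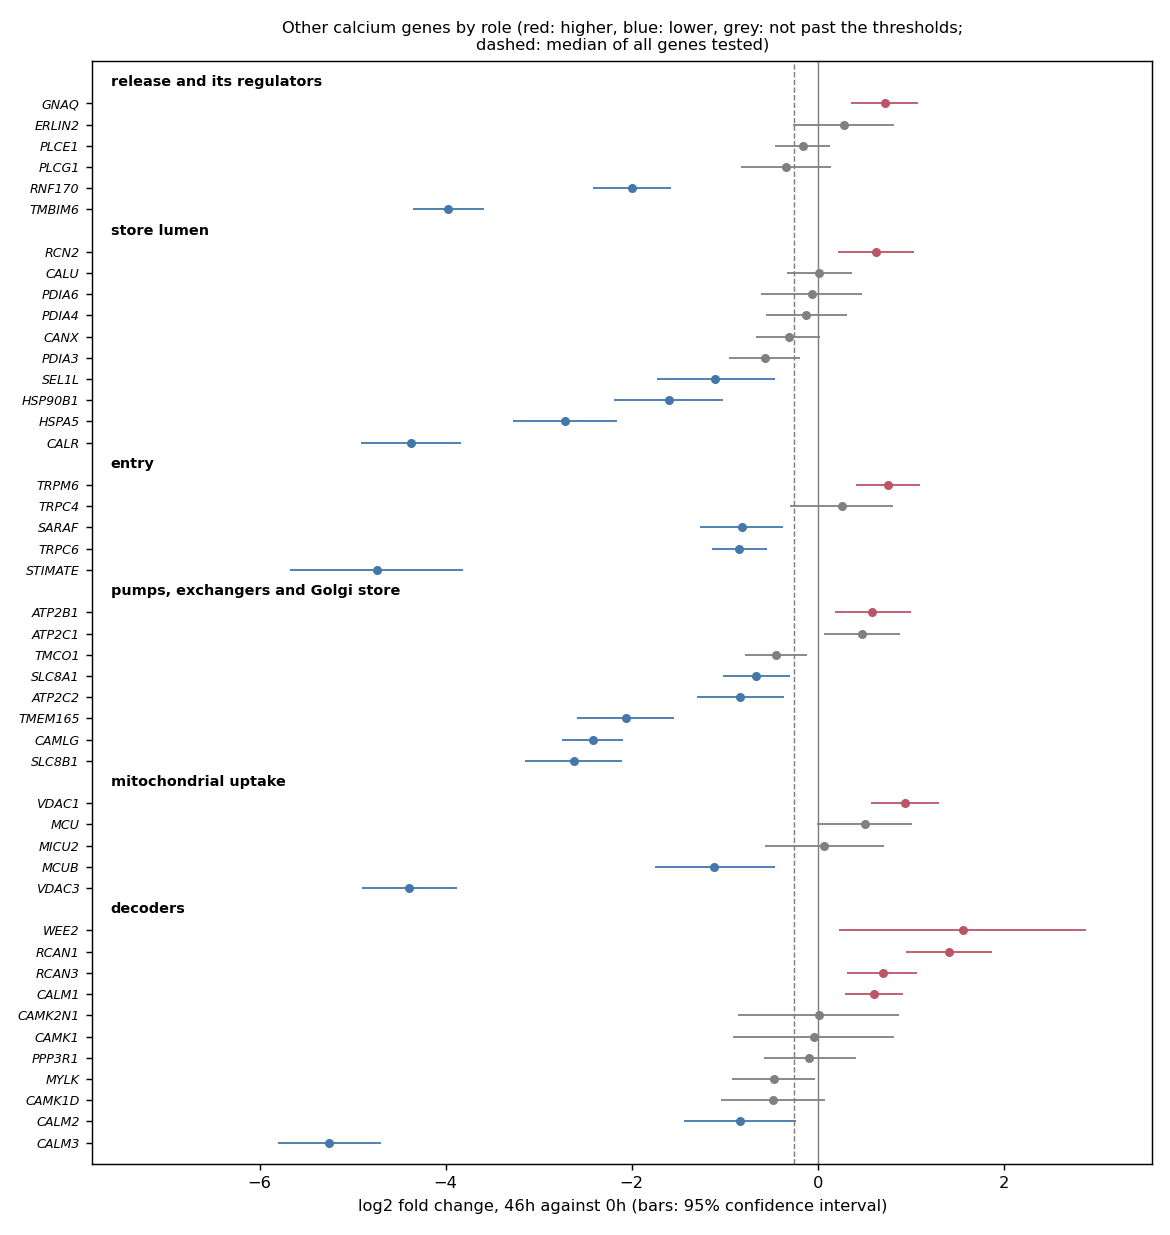
Log2 fold change at 46h against 0h (horizontal axis) of other calcium genes in the fit, grouped by role, with 95% confidence intervals from limma; red and blue mark genes past both thresholds, grey those that are not, and the dashed line is the median of all genes tested (-0.25). CALM3, STIMATE, VDAC3, CALR and TMBIM6 lie farthest to the left, between -5.25 and -3.97.

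Among regulators of release, 6 of 24 matched genes were fitted, and at 46h against 0h 1 rose and 2 fell. TMBIM6, an endoplasmic reticulum protein that lets calcium leak from the store, held between 124.2 and 144.5 FPKM at 0h, between 194.48 and 235.71 at 22h and between 5.66 and 9.86 at 46h. It first rose (log2 fold change 0.67, adjusted p = 0.0104) and then fell below its 0h level (log2 fold change -3.97 against 0h, adjusted p = 2.41e-10), with no overlap between any of the stages. RNF170, a ubiquitin ligase of activated inositol trisphosphate receptors, went from 9.88 to 5.67 to 1.74 FPKM (-0.70 and -2.0 against 0h, adjusted p = 0.0133 and 5.40e-07). The 22h fall of RNF170 was -0.54 and under the fold threshold with quantile normalization. GNAQ, the G protein subunit that activates phospholipase C beta, rose from 4.19 to 7.51 FPKM by 22h (0.71, adjusted p = 0.00564) and was at 7.56 FPKM at 46h (0.72 against 0h, adjusted p = 0.0017).

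The ryanodine receptors, the other family of store channels, were under the filter, at 12-library means of 0.824 FPKM for RYR2 and 0.276 FPKM for RYR3. PLCZ1, the sperm phospholipase C, averaged 0.0942 FPKM.

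In the store lumen 10 of 13 genes were fitted, and at 46h against 0h 1 rose and 4 fell. Calreticulin (CALR), a chaperone and the main calcium buffer of the store, held between 81.74 and 152.66 FPKM at 0h, between 11.61 and 27.86 at 22h and between 4.23 and 5.35 at 46h. Each stage lay wholly below the one before, with log2 fold changes of -2.60 at 22h (adjusted p = 1.38e-05) and -4.37 at 46h (adjusted p = 2.66e-09) against 0h. HSPA5, the chaperone BiP, held 58.2 and 57.1 FPKM at 0h and 22h and 7.73 FPKM at 46h (-2.72, adjusted p = 5.04e-07). HSP90B1, the chaperone GRP94, fell at 46h as well (107, 139 and 32.3 FPKM; -1.60 against 0h, adjusted p = 1.39e-04). RCN2, a reticulocalbin, rose at 22h (29.5 to 57.4 FPKM; 0.92, adjusted p = 0.00253) and stood at 46.3 FPKM at 46h (0.63, adjusted p = 0.0102), a call lost in TPM (0.53) and without replicate 3 of 0h or replicate 2 of 46h (0.57 each).

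Of 19 entry genes 6 were fitted, and at 46h against 0h 2 rose and 3 fell. STIMATE, which helps STIM1 to reach the plasma membrane, held between 66.96 and 99.1 FPKM at 0h, between 3.06 and 21.31 at 22h and between 1.3 and 4.23 at 46h (-2.66 and -4.74 against 0h, adjusted p = 4.85e-04 and 3.12e-07). The 22h and 46h ranges overlapped while 0h stood clear of both. SARAF, a brake on STIM1, fell from 6.93 to 3.57 FPKM by 46h (-0.81, adjusted p = 0.00345), but the call was lost with median-of-ratios scaling (-0.48) and quantile normalization (-0.13). TRPC6, a diacylglycerol-gated channel, fell from 3.25 to 1.37 FPKM (-0.84, adjusted p = 1.01e-04), and was at -0.58 and -0.17 under the same scalings.

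TRPM6, the close relative of TRPM7, went up from a mean of 2.11 to 4.22 FPKM over the whole of maturation (0.76, adjusted p = 8.17e-04).

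Among 15 pumps, exchangers and Golgi transporters 8 were fitted, and 1 rose and 5 fell at 46h against 0h. SLC8B1, the mitochondrial sodium-calcium exchanger, fell from 8.37 to 3.3 to 0.485 FPKM (-1.15 and -2.62 against 0h, adjusted p = 0.00286 and 3.48e-07). CAMLG, a membrane protein named for its effect on calcium signals, held 7.52 and 8.04 FPKM before it fell to 0.578 FPKM at 46h (-2.42, adjusted p = 7.84e-09). TMEM165, a Golgi transporter, was already low at 22h (24.3, 6.8 and 5.15 FPKM; -1.73 and -2.06 against 0h, adjusted p = 1.53e-04 and 4.24e-06), but 3027 of its exonic bases overlap CLOCK on the opposite strand. Opposite-strand overlaps with other annotated genes also covered 665 exonic bases of ATP2B1, 367 of WEE2, 122 of MCUB and 77 of TRPC6, described in this and the other groups.

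SLC8A1, the plasma membrane sodium-calcium exchanger, fell at 22h from 12.5 to 4.76 FPKM (-1.25, adjusted p = 1.08e-04) and rose again to 7.55 FPKM at 46h (0.59 against 22h, adjusted p = 0.00958), with a log2 fold change of -0.66 against 0h (adjusted p = 0.00308). The later rise of SLC8A1 was lost in TPM (0.53) and without replicate 2 (0.46) or 4 (0.57) of 22h or replicate 1 (0.57) or 3 (0.54) of 46h. Its 46h call against 0h was lost with median-of-ratios scaling (-0.30) and quantile normalization (-0.01). The plasma membrane pump ATP2B1 rose from 30.6 to 52.7 FPKM by 22h (0.80, adjusted p = 0.00568) and was at 45.4 FPKM at 46h (0.59, adjusted p = 0.0136). The 46h call was lost in TPM (0.49) and without any of replicates 1 and 2 of 0h or 1 and 3 of 46h (0.44 to 0.58).

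In the mitochondrial group 6 of 9 matched genes were fitted, and 1 rose and 3 fell at 46h against 0h. VDAC3, an outer membrane channel, fell stepwise with no overlap of stages (266, 68.6 and 11.6 FPKM; -1.98 and -4.39 against 0h, adjusted p = 5.31e-05 and 1.44e-09), while its relative VDAC1 rose (42.5, 72.7 and 83.1 FPKM; 0.75 and 0.94, adjusted p = 0.00488 and 2.74e-04). MCUB, a subunit that restrains the mitochondrial calcium uniporter, fell from 241 to 111 FPKM (-1.11, adjusted p = 0.00504), a call lost with median-of-ratios scaling (-0.71).

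Of 22 matched decoders 11 were fitted, and 4 rose and 2 fell at 46h against 0h. CALM3, a calmodulin gene, held between 113.98 and 164.68 FPKM at 0h, between 37.54 and 74.78 at 22h and between 1.14 and 3.72 at 46h (-1.19 and -5.25 against 0h, adjusted p = 0.00339 and 6.29e-10). CALM2, which codes for the same protein, stood far higher at 3481, 2772 and 1827 FPKM (-0.83 at 46h against 0h, adjusted p = 0.0188), but its fall was lost with median-of-ratios scaling (-0.43), without a filter on low values (-0.83) or without replicate 4 of 0h (-0.55). RCAN1, an inhibitor of the calcium-dependent phosphatase calcineurin, rose at both steps (92.6, 158 and 242 FPKM; 0.77 and 1.41 against 0h, adjusted p = 0.0145 and 5.33e-05), though its 22h call was lost without replicate 4 of 22h (0.65). Its relative RCAN3 rose from 8.8 to 14.2 FPKM by 22h (0.65, adjusted p = 0.0115, lost without replicate 2 of 0h at 0.55) and was at 14.9 FPKM at 46h (0.70, adjusted p = 0.00286).

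WEE2, the oocyte kinase that CaMKII activates to switch off CDK1 at fertilization, held between 222.1 and 2007.8 FPKM at 0h, between 490.74 and 2315.86 at 22h and between 1887.74 and 3517.97 at 46h. The stages overlapped, and the rise of 1.56 on the log2 scale by 46h (adjusted p = 0.0406) was 0.86 and not past the threshold without replicate 4 of 0h. It was also lost without replicate 3 of 0h or any of replicates 2 to 4 of 46h (1.45 to 1.56), in TPM (1.46) and without a filter on low values (1.56).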

How the data were processed

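The transcriptomes of 12 porcine oocyte libraries (4 each at 0h, 22h and 46h) were used as deposited. The deposited values are FPKM per Ensembl gene identifier, which the authors made by trimming with Trim Galore, STAR alignment to Sscrofa11 and RSEM, and no counts were used here. Groups came from the sample labels. The toolkit genes, the wider list and the tests were chosen with earlier results of these data known.

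Of 31908 identifiers 15029 received a symbol. The 7013 genes whose mean over all libraries reached 1 FPKM were fitted as log2(FPKM + 1) with limma 3.58.1 in R 4.3.3, with stage as the only factor and an intensity trend, and p-values were adjusted by Benjamini-Hochberg over all genes tested. A change needed an adjusted p under 0.05 and a fold change over 1.5. Low genes and ratios were compared by two-sided exact permutation tests. The fit was tested on simulated data. RYR1, ERLIN1, VDAC2, MCUR1, CAMK2N2, PPP3CC and FBXO43 had no match and were not analysed here. Of the wider list, 2 further genes enter the counts and are not reported here by name. Named from the wider list were up to 3 genes per role and direction with the largest change at 46h against 0h, and any that passed at 22h against 0h, and for each toolkit gene the 3 closest by correlation. Coordinates and sequences are RefSeq on Sscrofa11.1, matched by symbol, and STIMATE was not found there. Alternatives covered the pseudocount, the filter, the scaling, the fit, a replicate block and each library left out.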

Additional observations from a re-analysis of the deposited data

Results flagged for a closer look

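Among 123 groups of 4 libraries examined for a library far from the others, 4 had such a library, while chance alone gives about 1 in 20 groups. STIM1 stood at 0.08 FPKM in replicate 1 of 0h, against 0.04 FPKM in each of the other 3, and at 0.03 FPKM in replicate 2 of 46h, where the other 3 were listed at 0. TRPC6 stood at 2.7 FPKM in replicate 2 of 0h, the lowest of a group with a mean of 3.25 FPKM. VDAC3 stood at 190.77 FPKM in replicate 4 of 0h, the lowest of a group with a mean of 266 FPKM, in a library that stood apart from its group over all genes.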

How the results depend on the processing

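The ITPR1 fall passed both thresholds under every alternative, with log2 fold changes of -1.98 to -0.93 at 46h against 0h and -1.97 to -1.09 at 46h against 22h, and of -1.71 to -1.49 and -1.70 to -1.48 with each library left out in turn. The number of toolkit genes past the thresholds at 22h against 0h was 0 in each. At 46h against 22h it was 3 with quantile normalization, and at 46h against 0h 3 with quantile normalization and 2 with a pseudocount of 0.1, median-of-ratios scaling, TPM without mitochondrially encoded genes, or the adjusted p alone; with each library left out it ranged from 1 to 2, being 2 without replicate 3 of 0h or replicate 2 of 46h. The genes added were ATP2A2 and, with quantile normalization, TRPM7. The cause was not tested. With a filter at a mean of 5 FPKM, TRPM7 and CAMK2G were left out and have no value. The counts for the wider list ranged from 14 to 20, 14 to 20 and 23 to 32 in the 3 comparisons and stayed within 1.5 times the values given. At 46h against 0h, median-of-ratios scaling split all genes tested into 2057 higher and 2280 lower and quantile normalization into 2877 and 1789, against 1179 and 2743 as deposited. At 46h against 22h these splits were 1419 and 1784, 1971 and 1340, and 692 and 2283, and at 22h against 0h 671 and 1240, 1048 and 1126, and 550 and 1323, in the same order.

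Signs turned in differences that did not pass the thresholds. CAMK2D turned to -0.06 at 46h against 22h without replicate 1 of 22h (range -0.06 to 0.25 with each library left out), and to 0.21 and 0.56 at 46h against 0h with median-of-ratios scaling and quantile normalization. CAMK2G turned to 0.26 at 46h against 22h with quantile normalization, and at 46h against 0h to 0.19 and 0.58 under these scalings (the latter with limma adjusted p = 0.00792 but under the fold threshold). STIM1 turned to -0.02 at 22h against 0h with a pseudocount of 0.1. The ratios of ITPR2 to ITPR3 and of CAMK2G to CAMK2D at 46h against 0h turned to 0.01 each with a pseudocount of 1, and that of ORAI1 to STIM1 turned to 0.09 and 0.08 at 46h against 22h and 0h with median-of-ratios scaling. With single libraries left out, the differences of low genes and ratios near 0 also changed sign: ranges at 22h against 0h were -0.04 to 0.04 for STIM1, -0.25 to 0.09 for ORAI1, -0.04 to 0.05 for ITPR3 and -0.72 to 0.06 for ITPR2 to ITPR3, the ORAI1 to STIM1 ratio ranged from -0.52 to 0.49, -0.64 to 0.21 and -0.64 to 0.32 in the 3 comparisons, and at 46h against 0h CAMK2G to CAMK2D ranged from -0.15 to 0.23, ITPR2 to ITPR3 from -0.49 to 0.29 and ITPR3 from -0.08 to 0.01. The cause was not tested.

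Leaving out replicate 4 of 0h and replicate 1 of 22h together was chosen after seeing the data, and gave the same counts of toolkit genes and an ATP2A2 change of 0.47 (limma adjusted p = 0.0536) at 46h against 0h, with CAMK2D at -0.06 at 46h against 22h. The deviations of same-numbered libraries correlated at -0.466 to 0.0823 between 0h and 22h, at -0.281 to 0.0845 between 0h and 46h and at 0.00884 to 0.381 between 22h and 46h. In no comparison did every pair exceed 0.1, so the numbers were not taken to pair the samples. With the replicate number as a block the ITPR1 change at 46h against 0h was -1.60 (limma adjusted p = 5.46e-05), 3894 of all genes passed against 3922 without the block, and of the genes named WEE2 (adjusted p = 0.0607) no longer passed. Of the 12 pairs with the same number, 3 were the best match, all between 22h and 46h (replicates 1, 3 and 4), which is a hint from the data and not the design. Without read counts, the precision of the genes under 1 FPKM cannot be set beyond the spread of 4 libraries.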
